A study of Homo sapiens with 38 samples.

Results

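The genes described here are 10 direct targets of the transcription factor p53 other than CDKN1A, the gene of the cell cycle inhibitor p21: MDM2, TP53INP1, BAX, GDF15, RRM2B, SESN1, SESN2, GADD45A, BTG2 and FAS. Their probe sets, the groups of short oligonucleotides that report a transcript on the array, were found by gene symbol. Where a gene has several, its brightest probe set over the 38 arrays stands for it unless another is named. A probe set that names the gene alone was found for 9 of the 10 genes, 28 probe sets in all, of the 54613 probe sets on the array. BTG2 was not analysed here. All 9 genes were among the 8511 of 19775 genes whose log2 value lay above 5 on at least 2 arrays of experiment 1, and 16 of the 28 probe sets passed that filter on their own.

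The arrays hold RNA of IMR90 cells, a line of human fetal lung fibroblasts, that carried an empty vector (MLP) or hairpin RNAs that lower RB (shRB), p107 (shp107) or p130 (shp130) by RNA interference. These 3 proteins are the retinoblastoma family, which represses E2F target genes when cells stop dividing. In experiment 1 each of the 4 kinds of cell was growing in 10% serum, kept in 0.1% serum (low serum), grown to confluence, or made senescent with ras, with 2 arrays for each of the 16 groups. Experiment 2 repeated 3 of these groups, vector cells while growing and when senescent and shRB cells when senescent, also with 2 arrays each, which makes 38 arrays in 19 groups. Only the senescent cells carried ras, so an effect of ras and an effect of the arrest cannot be told apart. Not given in the sources used here are the ras allele, the time after its introduction and the number of hairpin sequences per gene. The labels do not state that the 2 replicates of a group came from different cultures, and the p-values therefore reflect the spread of these arrays, which may be technical.

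In normal cells p53 is kept low by MDM2, a ubiquitin ligase that marks it for degradation and is itself a p53 target, which closes a feedback loop. DNA damage or an oncogene such as ras blocks this degradation, and p53 then binds response elements near its targets and raises their transcription. The targets act in arrest and repair (GADD45A, BTG2), supply of DNA precursors (RRM2B), control of growth signalling and oxidants (SESN1, SESN2), secretion (GDF15), and autophagy and cell death (TP53INP1, BAX, FAS). Several of them, GDF15, SESN2 and GADD45A among them, also answer to other stress factors such as ATF4.

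RefSeq promoter windows of build GRCh38.p14, each 300 bases long from 250 before to 50 after a start, were at hand for 7 of the 10 genes, 14 windows in all. They were searched on both strands for the p53 response element as 2 adjacent repeats. The C and G of each repeat's core had to be intact, with at most 2 mismatches at the other bases, those between that C and G included. The element was found in 3 windows of 2 genes, and in 100 of all 35116 windows (0.285%). The matches lie at the downstream MDM2 start, 94 and 101 bases before the 2 starts listed there (chr12:68808883-68808982, plus strand), and 122 bases before a FAS start (chr10:88991269-88991368, plus strand). They are shown because MDM2 and FAS are the members with such a match in these windows; capitals mark the element.
MDM2: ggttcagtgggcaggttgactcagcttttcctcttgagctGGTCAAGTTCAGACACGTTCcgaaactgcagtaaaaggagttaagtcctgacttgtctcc
FAS: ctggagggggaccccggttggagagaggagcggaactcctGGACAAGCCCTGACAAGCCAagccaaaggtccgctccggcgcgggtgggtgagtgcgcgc
The ATF4-type element TGATGNAA, searched on both strands, was in 0 of the 14 windows and in 3.62% of all windows.

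Values are on the log2 scale of GCRMA, a background correction and normalization for this array type. The median of an array lay between 3.27 and 3.41, and the Pearson correlation of replicate arrays between 0.9795 and 0.9969. Of 10 fibroblast markers, 9 lay above 5 on every array (highest COL1A2, 13.59). Of 7 epithelial markers only KRT18 lay above 5 on any array, of 6 endothelial markers only TEK, and of 4 blood markers none. In RNA from many cells, fewer cells that express a gene and less RNA per cell cannot be told apart. The number of arrays, 2 per group, limits the precision. Changes below are log2 differences of group means ± SE, and a gene is called when its adjusted p in limma, with Benjamini-Hochberg adjustment over the 8511 genes, is under 0.05. Confidence intervals are 95%.

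The p53 targets did not move as one group with growth state. In vector cells GDF15 and RRM2B were higher in senescent than in growing cells, TP53INP1 and SESN2 were higher in low serum, and BAX and FAS were each lower in one state. Low serum against growing called 3 members higher (RRM2B, SESN2, TP53INP1) and none lower, in a comparison that called 13% of all genes. Confluent against growing called GDF15 and RRM2B higher and FAS lower (25.1% of all genes called). Senescent against growing called GDF15 and RRM2B higher and BAX lower (25.4% of all genes called). The 3 comparisons share the growing vector arrays. In a fit of only the groups compared, the low-serum calls of RRM2B and SESN2 (adjusted p = 0.0731 and 0.147) and the confluent calls of GDF15, RRM2B and FAS (adjusted p = 0.0811, 0.125 and 0.105) were lost. The median change of the 9 genes was 0.67 in low serum, 0.31 at confluence and 0.01 in senescence, beside 0.03, -0.05 and -0.10 over all genes.

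**Figure D1:**
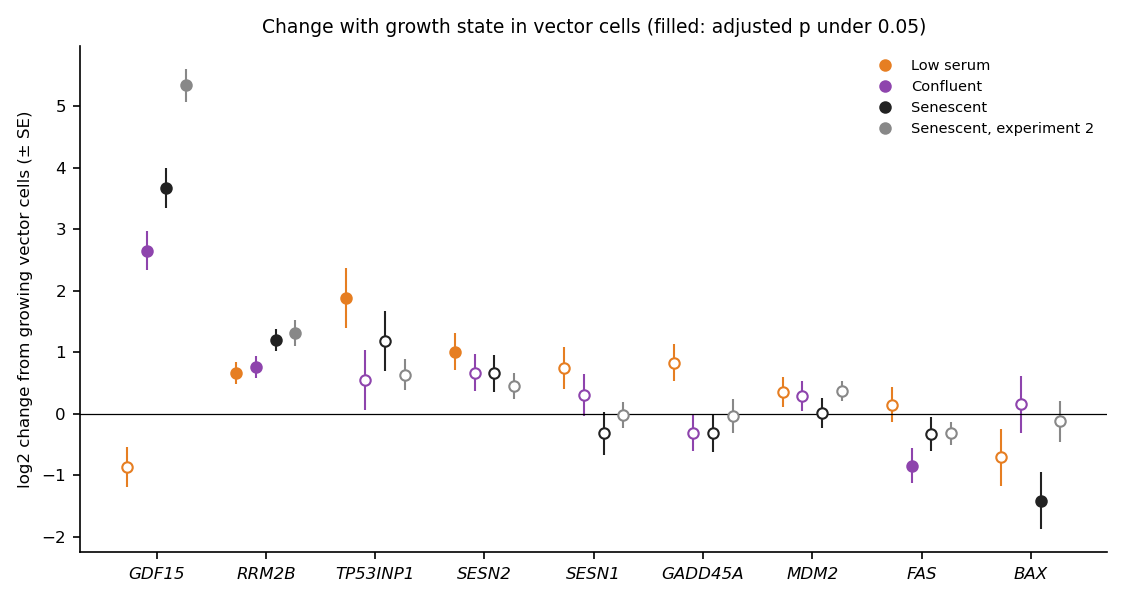
Log2 change from growing vector cells (y axis, ± SE, n = 2 arrays per group) of the 9 p53 targets (x axis) in low serum, at confluence and in senescence in experiment 1, and in senescence in experiment 2; filled points have an adjusted p under 0.05. GDF15 stands at 3.67 and 5.34 in the 2 senescent comparisons, RRM2B is filled in all 4, and MDM2, SESN1 and GADD45A are filled in none.

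GDF15 encodes growth differentiation factor 15, a stress hormone of the TGF-beta superfamily that cells secrete. Growing vector cells had log2 values of 9.21 and 8.30, and senescent vector cells 12.35 and 12.49. That is a rise of 3.67 ± 0.32, or 12.7-fold (adjusted p = 3.23e-08, limma). Confluent vector cells had 12.08 and 10.74, a rise of 2.66 ± 0.32 over growing cells, or 6.30-fold (adjusted p = 5.43e-06). In low serum the values were 7.73 and 8.05, below both growing arrays, a difference of -0.86 that did not pass (adjusted p = 0.0814). GDF15 also differed between the arrested states: it was 23.1-fold higher in senescent than in low-serum vector cells (4.53 ± 0.32, adjusted p = 7.24e-10). Apart from means of probe sets, the GDF15 values come from 221577_x_at, whose suffix _x_at marks possible binding to transcripts of other genes. The 2 other GDF15 probe sets lay below the filter. From growing to senescent vector cells their means went from 3.065 to 3.303 (229868_s_at) and from 2.837 to 2.98 (221576_at). In experiment 2 they went from 2.988 to 3.97 and from 2.503 to 3.424. With the mean of all 3 the rises were 1.35 in senescence and 1.17 at confluence, both still called. That mean includes 221577_x_at and is not an independent check.

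The rise of GDF15 with senescence was present with every hairpin. Growing shRB cells had 7.49 and 7.13 and senescent shRB cells 12.44 and 12.52, a rise of 5.17 ± 0.32, or 36.0-fold (adjusted p = 8.59e-11). With shp107 the values went from 7.36 and 7.69 to 12.65 and 12.68 (5.14, adjusted p = 1.39e-10). With shp130 they went from 7.84 and 8.45 to 12.37 and 12.51 (4.29, adjusted p = 2.06e-09). All 8 senescent arrays of experiment 1 lay between 12.35 and 12.68, a narrower range than the growing arrays, which ran from 7.13 to 9.21. In experiment 2 GDF15 was 7.69 and 6.81 in growing vector cells and 12.69 and 12.50 in senescent vector cells, a rise of 5.34 ± 0.27 (40.6-fold, adjusted p = 2.25e-06). The rise in experiment 2 exceeded that in experiment 1 by 1.68 ± 0.46, which did not pass the test of the difference (adjusted p = 0.0677). That difference passed when growing vector replicate 2 of experiment 1 (adjusted p = 0.0297) or growing vector replicate 1 of experiment 2 (adjusted p = 0.0362) was left out.

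At confluence GDF15 differed between the hairpins. Confluent shRB cells had 8.72 and 8.75 and confluent shp107 cells 8.56 and 8.53, while confluent shp130 cells had 11.29 and 11.62, within the range of the vector arrays (12.08 and 10.74). GDF15 was lower than in vector cells by 2.67 ± 0.32 on the log2 scale with shRB (6.38-fold lower, adjusted p = 5.49e-06) and by 2.86 with shp107 (7.28-fold lower, adjusted p = 2.16e-06). With shp130 it differed by 0.05, with an interval from -0.62 to 0.72. The calls with shRB and shp107 were lost in a fit of only the groups compared (adjusted p = 0.103 and 0.0795). Growing cells with shRB and shp107 also had lower values than vector cells, by -1.44 (adjusted p = 0.0594) and -1.23 (adjusted p = 1), which did not pass. The growing shRB difference passed with an intensity trend (adjusted p = 0.0485) and with both experiments in 1 fit (adjusted p = 0.0370). Without growing vector replicate 2 it was -1.90. The change from growing to confluent was smaller than in vector cells by -1.23 ± 0.46 with shRB (adjusted p = 0.175) and -1.64 ± 0.46 with shp107 (adjusted p = 0.0511). The shp107 difference passed when growing vector replicate 1 was left out (-2.09, adjusted p = 0.0157), and also without confluent vector replicate 2 (-2.31, adjusted p = 0.000593). Without the latter array the shRB difference passed too (-1.90, adjusted p = 0.00363). The 2 confluent vector arrays differ by more than those of the other GDF15 groups.

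**Figure D2:**
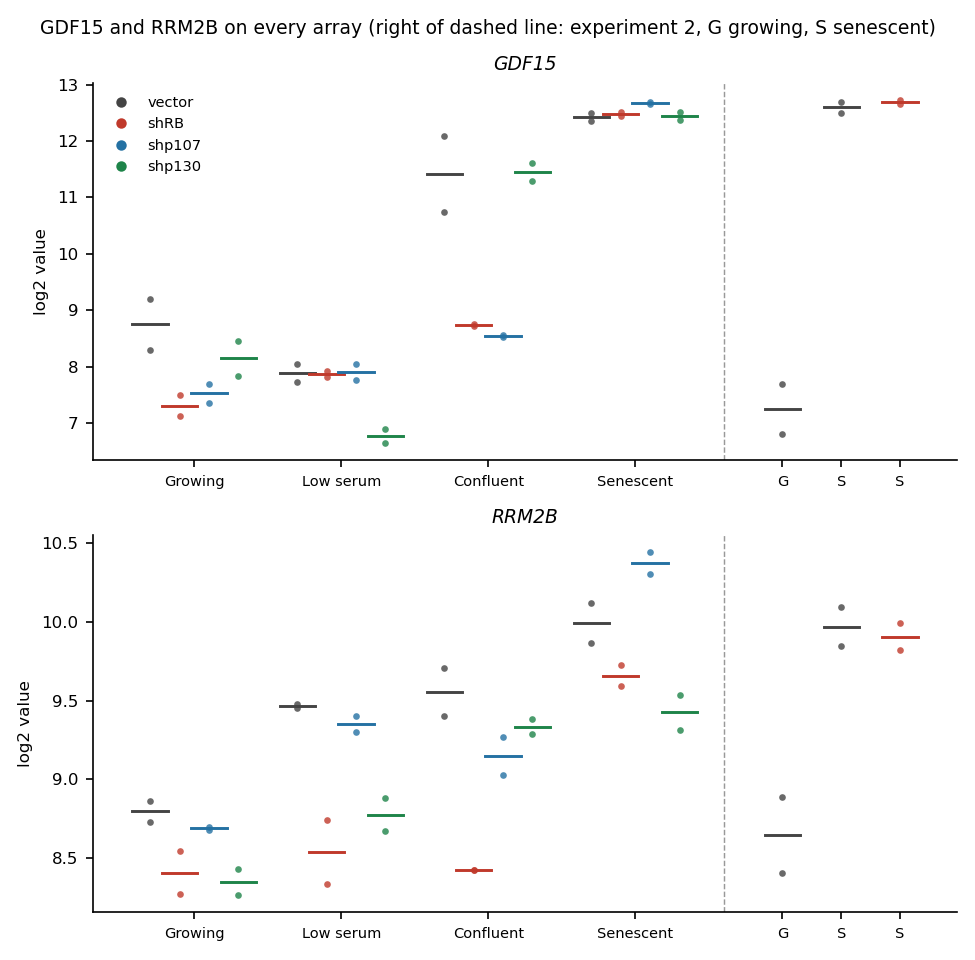
Log2 value (y axis) of GDF15 (top) and RRM2B (bottom) on each of the 38 arrays by growth state (x axis) and hairpin (colour); dots are arrays and bars are means of 2, and experiment 2 stands right of the dashed line (G growing, S senescent). GDF15 is at 12.35 or above on every senescent array, and at confluence the shRB and shp107 arrays lie between 8.53 and 8.75.

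RRM2B encodes p53R2, the small subunit of ribonucleotide reductase that supplies DNA precursors outside S phase. In vector cells its log2 values were 8.73 and 8.86 in growing, 9.48 and 9.45 in low-serum, 9.71 and 9.40 in confluent and 9.86 and 10.12 in senescent cells. Every arrested array lay above both growing arrays. The rises were 0.67 ± 0.18 in low serum (adjusted p = 0.0169), 0.76 ± 0.18 at confluence (adjusted p = 0.00381) and 1.20 ± 0.18 in senescence (2.29-fold, adjusted p = 3.48e-05). The low-serum call was lost when any of the 4 arrays was left out (adjusted p from 0.0600 to 0.113), and the confluent call without confluent vector replicate 1 (adjusted p = 0.0501). In experiment 2 RRM2B went from 8.41 and 8.89 to 10.09 and 9.85 with senescence, a rise of 1.32 ± 0.21 (adjusted p = 0.00143), 0.13 more than in experiment 1 (interval of the difference -0.41 to 0.66).

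RRM2B also rose with senescence in each hairpin line, by 1.25 with shRB (adjusted p = 1.24e-05), 1.69 with shp107 (adjusted p = 2.82e-07) and 1.08 with shp130 (adjusted p = 7.93e-05). At confluence and in low serum RRM2B was lower with shRB than in vector cells. Confluent shRB cells had 8.42 and 8.43, against 9.71 and 9.40 in vector cells, a fall of 1.13 ± 0.18 (adjusted p = 0.000131; 0.119 in a fit of only these groups). In low serum shRB cells had 8.34 and 8.75, against 9.48 and 9.45, a fall of 0.93 ± 0.18 (adjusted p = 0.0483). The low-serum call was lost without either vector array or without shRB replicate 1 (adjusted p = 0.166, 0.243 and 0.167), with the replicate number as a block (adjusted p = 0.0542), under quantile normalization (adjusted p = 0.05001) and in a fit of only these groups (adjusted p = 0.962). Low-serum shp130 cells also had values below both vector arrays, 8.88 and 8.67 (-0.69, adjusted p = 0.130), and growing shp130 cells, at 8.26 and 8.43, lay near growing shRB cells, at 8.27 and 8.54. In senescence the shRB arrays, at 9.72 and 9.60, lay just below the vector arrays (-0.33, adjusted p = 0.292). The highest RRM2B values were those of senescent shp107 cells, 10.31 and 10.44, and shRB cells were below them by -0.72 ± 0.18 (adjusted p = 0.00706), a call lost without senescent shRB replicate 2 (adjusted p = 0.0589) or shp107 replicate 2 (adjusted p = 0.0740).

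TP53INP1 encodes a p53-induced nuclear protein with a part in autophagy. Its values were 7.11 and 7.59 in growing vector cells and 9.59 and 8.89 in low serum, a rise of 1.89 ± 0.49, or 3.70-fold (adjusted p = 0.0138). Cells with a hairpin gave nearly the same size: 1.83 with shRB (adjusted p = 0.0269), 1.92 with shp107 (adjusted p = 0.0176) and 1.97 with shp130 (adjusted p = 0.0113). All 8 low-serum arrays, from 8.61 to 9.59, lay above all 8 growing arrays, from 6.88 to 7.59. The shRB call was lost without the filter (adjusted p = 0.0553), and each of these calls depended on single arrays. In vector cells it was lost without growing replicate 1 (adjusted p = 0.108) or low-serum replicate 1 (adjusted p = 0.163), and with shRB and shp107 without any 1 of the 4 arrays (adjusted p from 0.0615 to 0.205 and from 0.0731 to 0.150). With shp130 the same held, with adjusted p from 0.0609 to 0.0851.

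At confluence TP53INP1 varied between the replicates of vector and shp130 cells. Confluent vector cells had 6.95 and 8.85 and confluent shp130 cells 8.25 and 6.59, so that in each pair 1 array lay at the level of growing cells. Confluent shRB cells had 8.25 and 8.83, a rise of 1.52 over growing shRB cells (adjusted p = 0.0489). That call was lost without any 1 of the 4 arrays (changes from 1.23 to 1.80) and without the filter (adjusted p = 0.0895). Every senescent array of experiment 1, from 7.77 to 8.81, lay above every growing array of that experiment, from 6.88 to 7.59. The widest senescent pair was that of shp107 cells, 7.77 and 8.81. Senescent vector cells had 8.28 and 8.79, above both growing arrays, but the difference of 1.19 ± 0.49 did not pass (adjusted p = 0.0819), and neither did the 0.64 ± 0.25 of experiment 2 (adjusted p = 0.0774). The first passed under quantile normalization (1.32, adjusted p = 0.0454) and in a fit of only the groups compared (adjusted p = 0.0226). That of experiment 2 passed in such a fit (adjusted p = 0.0400) and with the replicate number as a block (adjusted p = 0.0226).

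The sestrins SESN1 and SESN2 restrain the growth kinase mTORC1 and take part in the defence against oxidants. Both were dim, with SESN2 at 3.70 to 5.58 and SESN1 at 3.93 to 5.52 over the 38 arrays, not far above the array medians. SESN2 was 4.61 and 3.70 in growing vector cells and 4.84 and 5.50 in low serum, a rise of 1.01 ± 0.30 (adjusted p = 0.0282). That rise rests on single arrays: it was 0.56 without growing replicate 2 (adjusted p = 0.399) and 0.68 without low-serum replicate 2 (adjusted p = 0.236). Against senescent vector cells (3.93 and 4.09), SESN1 was higher in low serum (5.24 and 4.91). The senescent minus low serum difference was -1.07 ± 0.34 (adjusted p = 0.0178), lost without low-serum vector replicate 1 or either senescent vector array (adjusted p = 0.130, 0.0960 and 0.0501). Neither sestrin was called between senescent and growing vector cells, with SESN2 at 0.66 (adjusted p = 0.117) and SESN1 at -0.32 (adjusted p = 0.548). The SESN2 difference passed under quantile normalization (0.80, adjusted p = 0.0435), and it was 1.11 without growing vector replicate 1.

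GADD45A, whose protein binds PCNA and acts in growth arrest and DNA repair, had its highest values in low serum. The 8 low-serum arrays ran from 11.30 to 11.82 and the other 30 arrays from 9.76 to 11.23, without overlap. The change from growing cells in vector arrays, 10.68 and 11.03 against 11.55 and 11.81, was 0.83 ± 0.30 and did not pass (adjusted p = 0.0737). With shRB, shp107 and shp130 it was 0.59, 0.87 and 0.79, none called. Senescent vector cells, at 10.36 and 10.71, were below low-serum cells by -1.15 ± 0.30 (adjusted p = 0.00484), a call lost without senescent replicate 1 (adjusted p = 0.0596). Between senescent and growing vector cells GADD45A differed by -0.32 (interval -0.94 to 0.31) in experiment 1 and -0.04 (interval -0.67 to 0.60) in experiment 2.

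Against growing vector cells of experiment 1, BAX and FAS were each called lower in 1 arrested state by their brightest probe sets. BAX, whose protein permeabilises the outer mitochondrial membrane, had 8.88 and 8.85 in growing and 7.13 and 7.77 in senescent vector cells, a fall of 1.42 ± 0.46 (adjusted p = 0.0290). Confluent vector cells had 8.96 and 9.09, and senescent cells were below them by -1.57 ± 0.46 (adjusted p = 0.0125). The fall from growing cells was lost without growing replicate 1 or 2 or senescent replicate 1 (adjusted p = 0.109, 0.109 and 0.213), under quantile normalization (0.0523), without the filter (0.0604) and with the mean of its probe sets (0.0621), and the difference from confluent cells without confluent replicate 2 or senescent replicate 1 (adjusted p = 0.0616 and 0.123). In experiment 2 BAX was 8.45 and 7.44 in growing and 7.85 and 7.79 in senescent vector cells, a change of -0.12 with an interval from -0.87 to 0.63. The 2 experiments differed by 1.29 ± 0.66, not called (adjusted p = 0.409).

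FAS, the death receptor of the TNF receptor family, had 10.08 and 9.95 in growing and 9.02 and 9.32 in confluent vector cells, a fall of 0.84 ± 0.28 (adjusted p = 0.0333). The call was lost without either growing array or confluent replicate 1 (changes of -0.77, -0.91 and -0.69), and without the filter (adjusted p = 0.0535). FAS is covered by 4 probe sets past the filter, and each called the fall, with changes of -0.84, -1.22, -0.89 and -1.23 (24.8% of 13847 probe sets called when each was tested on its own). The one with 8.47 and 8.34 in growing and 7.53 and 7.49 in confluent cells (204781_s_at) kept its call without any 1 of the 4 arrays. Probe set 215719_x_at lost its call without growing replicate 1 (adjusted p = 0.0716), and 216252_x_at without growing replicate 2 (adjusted p = 0.0544) or confluent replicate 1 (adjusted p = 0.0845). In senescent vector cells FAS had 9.23 and 10.15, overlapping growing cells (-0.33, adjusted p = 0.438).

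MDM2, the ubiquitin ligase of p53, was called in no comparison of growth states in experiment 1 by its brightest probe set. This read 9.88 and 9.27 in growing, 10.07 and 9.78 in low-serum, 10.12 and 9.61 in confluent and 9.57 and 9.61 in senescent vector cells. Senescent and growing cells differed by 0.01 ± 0.25, with an interval from -0.50 to 0.53, while CDKN1A on the same arrays rose from 10.41 and 10.51 to 12.05 and 12.04 (1.58, adjusted p = 3.7e-05). In experiment 2 MDM2 was 8.99 and 9.11 in growing and 9.45 and 9.39 in senescent vector cells, a difference of 0.37 ± 0.16 that did not pass (adjusted p = 0.104). Senescent shRB cells of experiment 2 had 10.02 and 10.03, above senescent vector cells by 0.60 ± 0.16 (adjusted p = 0.0336). That call was lost without any 1 of the 4 arrays (adjusted p from 0.0820 to 0.279), and in experiment 1 the same difference was 0.03 (interval -0.48 to 0.54).

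**Figure D3:**
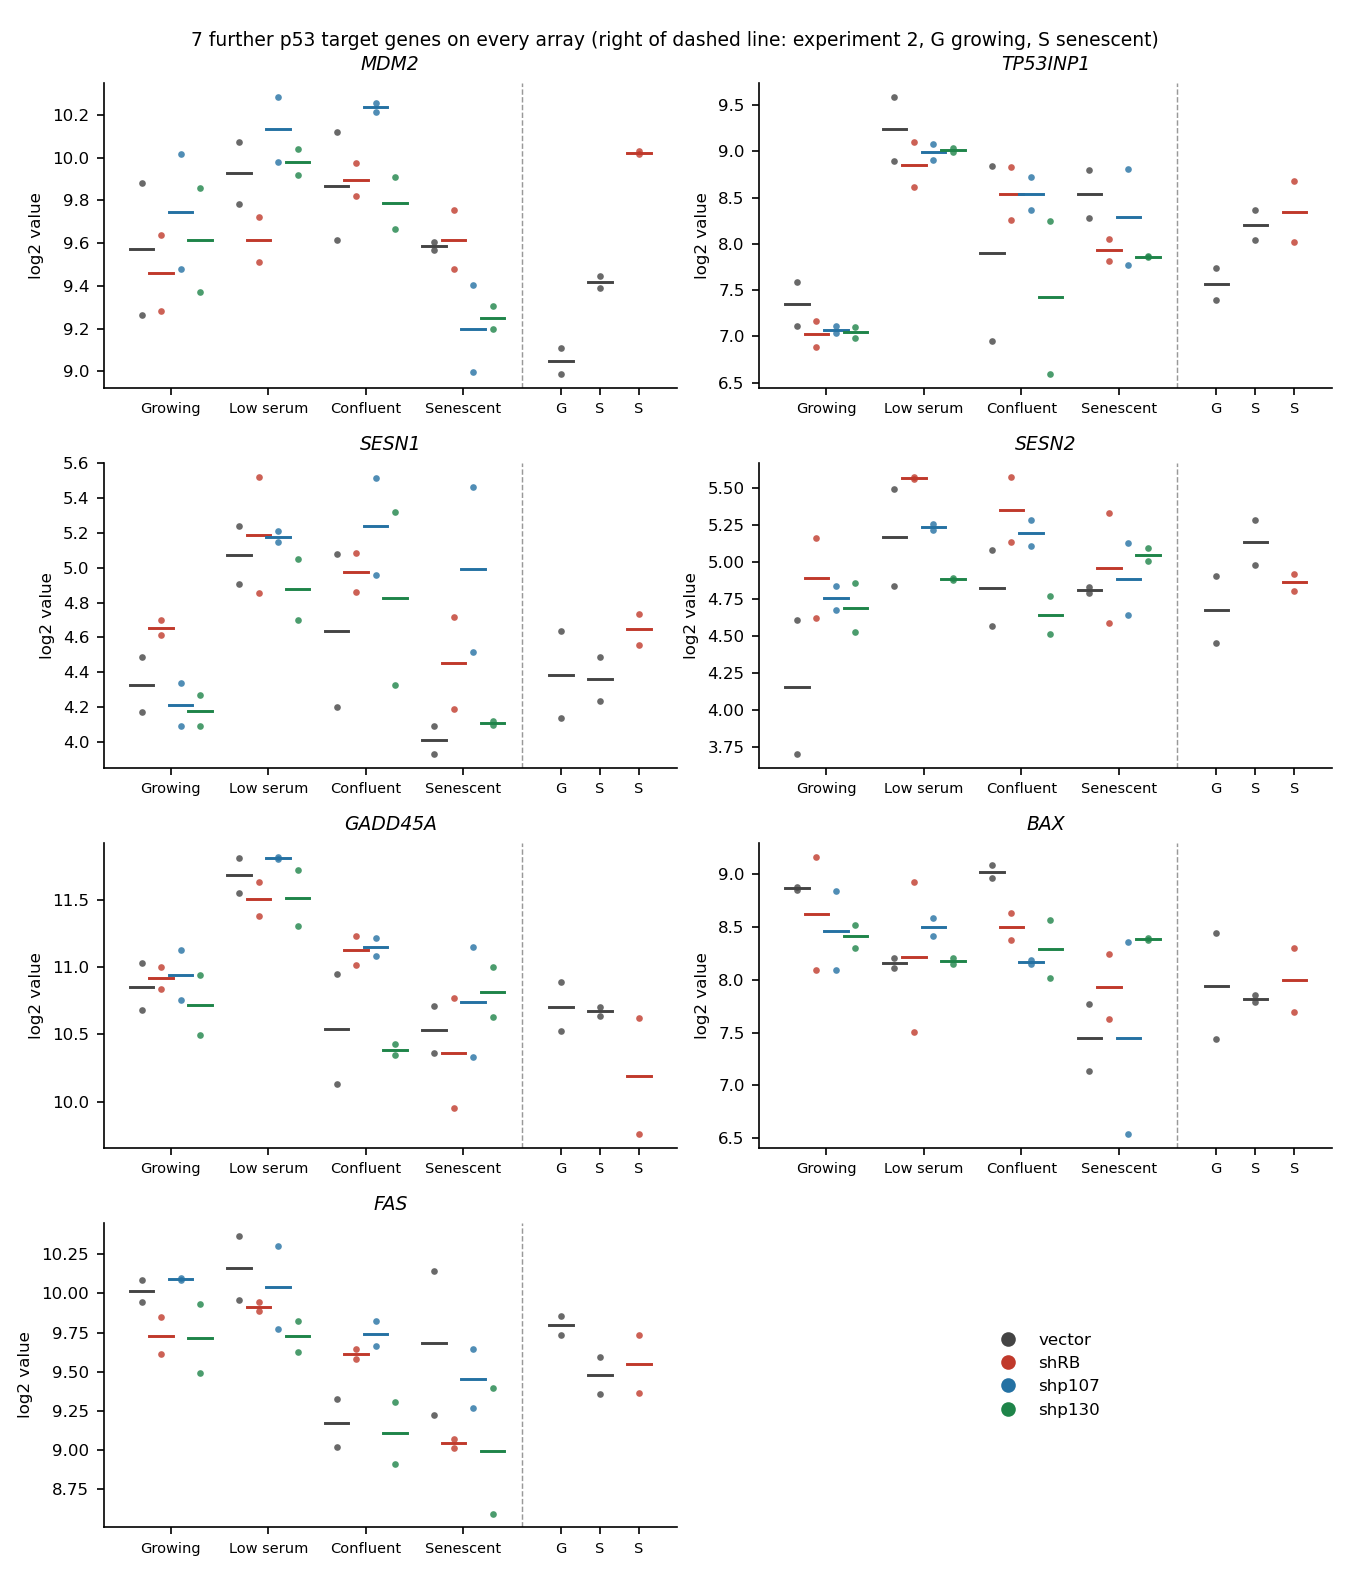
Log2 value (y axis) of the 7 other p53 targets on each of the 38 arrays by growth state (x axis) and hairpin (colour); dots are arrays, bars are means of 2, experiment 2 stands right of the dashed line (G growing, S senescent), and each panel has its own scale. TP53INP1 and GADD45A are higher on every low-serum array than on every growing array, and the 2 confluent vector and confluent shp130 arrays of TP53INP1 lie far apart.

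Direct comparison of arrested states in vector cells gave 4 member calls for senescent against low serum (38.9% of all genes called), namely GDF15 and RRM2B higher and GADD45A and SESN1 lower in senescence. RRM2B was higher by 0.53 ± 0.18 (adjusted p = 0.0239), a call lost without either low-serum array or senescent replicate 2 (adjusted p = 0.0861, 0.0906 and 0.182). Senescent against confluent cells called 2 members, GDF15 higher and BAX lower (33.4% of all genes called). GDF15 differed by 1.01 ± 0.32 (adjusted p = 0.0194), but by 0.34 without confluent replicate 2 (adjusted p = 0.466) and by 0.18 with the mean of its probe sets (adjusted p = 0.506). The call was also lost without either senescent array (adjusted p = 0.0593 and 0.101) and in a fit of only these groups (adjusted p = 0.230).

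Within the hairpin lines GDF15, RRM2B and TP53INP1 were the members called between growing and arrested cells by their brightest probe sets. In shRB cells 1 member was called in low serum (TP53INP1; 6.43% of all genes), 2 at confluence (GDF15 and TP53INP1; 11.1%) and 2 in senescence (GDF15 and RRM2B; 32.8%), all higher than in growing cells. The call of the confluent GDF15 rise of shRB cells, 1.42 (adjusted p = 0.00654), was lost without growing shRB replicate 2 (1.24) or confluent shRB replicate 1 (1.44). It was also lost with the mean of its probe sets (0.52, adjusted p = 0.0899). In shp107 cells 2 members were called in low serum (RRM2B and TP53INP1, 6.8%), none at confluence (8.15%) and 2 in senescence (GDF15 and RRM2B, 38.2%). At confluence 4 members had an unadjusted p under 0.05, beside 1870 genes, with GDF15 among the 4 at 1.02. There GDF15, SESN1 and TP53INP1 passed under quantile normalization (adjusted p = 0.0472, 0.0371 and 0.0443). They also passed with both experiments in 1 fit (adjusted p = 0.0471, 0.0474 and 0.0456). GDF15 and TP53INP1 passed in a fit of only the groups compared (adjusted p = 0.0326 and 0.0163), and GDF15 with an intensity trend (adjusted p = 0.0460). RRM2B in low serum rose by 0.66 with shp107 (adjusted p = 0.0248), a call lost without any 1 of the 4 arrays (adjusted p from 0.0889 to 0.209).

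In shp130 cells TP53INP1 rose and GDF15 fell in low serum (9.8% of all genes called). GDF15 had 7.84 and 8.45 in growing and 6.90 and 6.64 in low-serum shp130 cells, a fall of 1.38 ± 0.32 (adjusted p = 0.00773). It was lost without growing shp130 replicate 2 (adjusted p = 0.148) or low-serum shp130 replicate 2 (adjusted p = 0.0800), and with the mean of its probe sets, which gave -0.30 (adjusted p = 0.407). At confluence GDF15 rose by 3.31 (adjusted p = 4.89e-07) and RRM2B by 0.99 (adjusted p = 0.000539), with 18.6% of all genes called, and both rose in senescence (32.7%).

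FAS had 9.94 and 9.49 in growing and 9.31 and 8.91 in confluent shp130 cells, which do not overlap, but -0.60 ± 0.28 did not pass (adjusted p = 0.147). With the mean of its probe sets FAS was lower at confluence with shp130 (-0.73, adjusted p = 0.0101) and in senescence with shRB (-0.58, adjusted p = 0.0233) and shp130 (-0.65, adjusted p = 0.0123). Among single probe sets, 215719_x_at fell from 9.002 and 9.037 in growing to 8.03 and 7.54 in confluent shp130 cells (1.23, adjusted p = 0.00701; 17.3% of probe sets called), and 204781_s_at fell by 0.94 (adjusted p = 0.00682). Both calls were lost without confluent shp130 replicate 2 (adjusted p = 0.0706 and 0.101), and that of 204781_s_at also without growing shp130 replicate 2 (adjusted p = 0.0503). In senescence 215719_x_at and 204781_s_at fell with shp130 by 1.04 and 0.81 (31.1% of probe sets called), and 215719_x_at and 216252_x_at with shRB by 1.01 and 0.87 (32.2%). These 4 calls were lost when senescent replicate 2 of the line was left out (adjusted p from 0.0823 to 0.297), and each also without 1 or both growing arrays (adjusted p from 0.0541 to 0.137).

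Between hairpin and vector cells in one state, the share of the 9 genes called was near that of all genes in most comparisons. In growing cells no member was called with shRB (0.188% of all genes; 3 members at an unadjusted p under 0.05), shp107 (0%; 1 member) or shp130 (0.0587%; 1 member). In low serum shRB called 1 member, RRM2B (0.0822% of all genes called), and shp107 (0.0352%) and shp130 (0.27%) called none. There no member and 354 genes had an unadjusted p under 0.05 with shp107, and 2 members and 471 genes with shp130. At confluence shRB called GDF15 and RRM2B lower (17.5%) and shp107 called GDF15 lower (13.5%), and with shp107 RRM2B differed by -0.41 (adjusted p = 0.151). With shp130 no member was called at confluence (0.0235%), and no member but 456 genes had an unadjusted p under 0.05.

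In senescent cells no member was called in experiment 1 with shRB (9.75%; 1 member at an unadjusted p under 0.05), shp107 (7.84%; 2 members) or shp130 (1.67%; 2 members). With the mean of its probe sets FAS was called lower than in vector cells with shRB (-0.77, adjusted p = 0.01195) and shp130 (-0.81, adjusted p = 0.0374). GDF15 was 12.44 and 12.52 with shRB against 12.35 and 12.49, a difference of 0.06 with an interval from -0.61 to 0.73. Between hairpins, shRB against shp107 called RRM2B (22.6% of all genes) and shRB against shp130 called none (12.6%). In the latter no member but 2172 genes had an unadjusted p under 0.05. In experiment 2 senescent against growing vector cells called GDF15 and RRM2B (39.2%), and senescent shRB against vector cells called MDM2 (20.1%). The 9 tests of whether a state change differed between a hairpin and vector cells called no member (1.03% of all gene tests). At an unadjusted p under 0.05 each test had from 0 to 2 members, beside 170 to 1337 genes. The 2 tests of a difference between experiments called none (1.33%). At an unadjusted p under 0.05 there were 1 member and 1120 genes for senescence, and 0 members and 1151 genes for shRB.

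**Figure D4:**
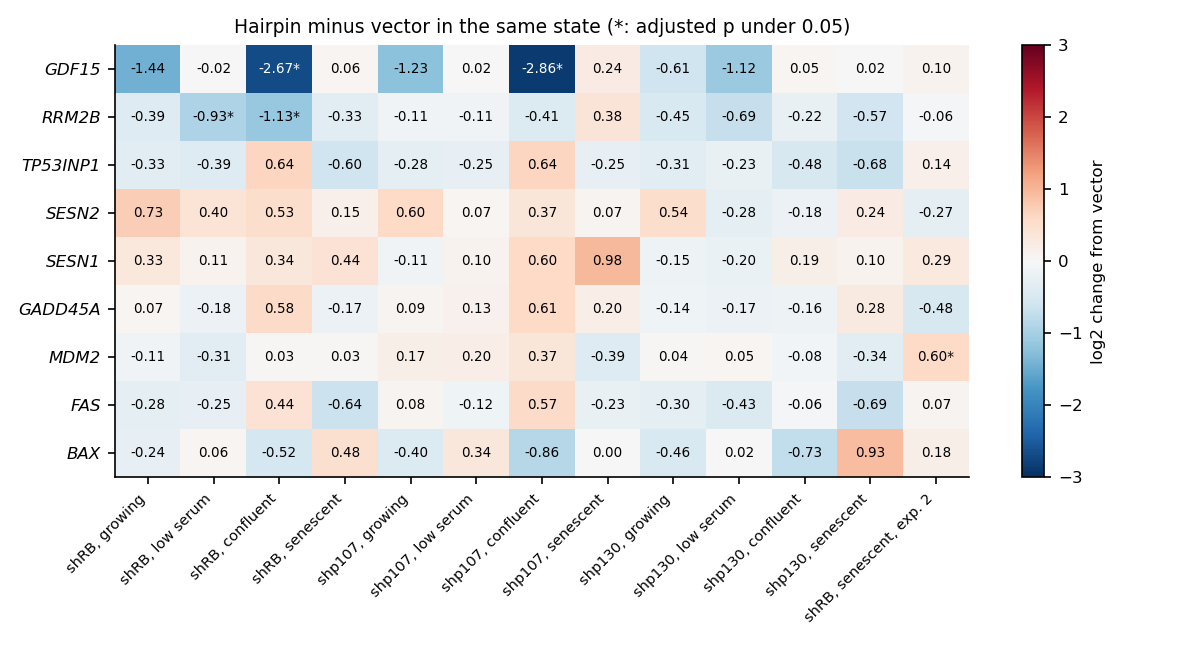
Log2 change of the 9 p53 targets (rows) with each hairpin from vector cells in the same state (columns; colour scale from -3, blue, to 3, red; n = 2 arrays per group), with an asterisk where the adjusted p is under 0.05. The asterisks stand at GDF15 in confluent shRB (-2.67) and shp107 (-2.86) cells, RRM2B in low-serum (-0.93) and confluent (-1.13) shRB cells and MDM2 in senescent shRB cells of experiment 2 (0.60).

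Probe sets of one gene did not always read alike. The maker's suffix _x_at marks probe sets that may also bind transcripts of other genes. In senescent cells of experiment 1 the brightest FAS probe set did not call shRB against vector (-0.64, adjusted p = 0.180), but the 3 others did (8.97% of probe sets called), with changes of -1.09, -1.16 and -1.02 (adjusted p = 0.0247, 0.00229 and 0.0499). Probe set 204781_s_at read 8.16 and 8.51 in vector and 7.25 and 7.11 in shRB cells, and lost its call without vector replicate 2 (adjusted p = 0.0569). The calls of 216252_x_at were lost without any 1 array and those of 215719_x_at without shRB replicate 2 or either vector array (adjusted p from 0.0536 to 0.327). With shp130 the same 204781_s_at fell by 1.41, to 7.02 and 6.82 (adjusted p = 0.00205; 1.68% of probe sets called), a call lost without vector replicate 2 (adjusted p = 0.0506). Against senescent shp107 cells the same 3 FAS probe sets were lower with shRB, by -1.14, -0.84 and -1.06 (23.4% of probe sets called). Each of these calls was lost without senescent shRB replicate 2 (adjusted p from 0.0844 to 0.195) or senescent shp107 replicate 2 (adjusted p from 0.189 to 0.479). Between senescent and confluent vector cells 215719_x_at and 204781_s_at were higher in senescence by 0.84 and 0.82 (32.7% of probe sets called). The first call was lost without any 1 of the 4 arrays (adjusted p from 0.0662 to 0.158), and the other without senescent replicate 2 (adjusted p = 0.106).

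In experiment 2 none of the 4 FAS probe sets was called with shRB (0.07, 0.35, 0.19 and 0.12; 21.2% of probe sets called), and 204781_s_at read 7.93 and 7.68 in vector and 8.04 and 7.95 in shRB cells. For this probe set the shRB effect differed between the experiments by 1.35 ± 0.31 (adjusted p = 0.0296; 1.19% of probe sets called), and the other FAS probe sets differed by 0.71, 1.44 and 1.14 (adjusted p = 0.406, 0.0843 and 0.208). The call was lost without senescent vector replicate 2 of experiment 1 (adjusted p = 0.132), shRB replicate 2 of experiment 1 (adjusted p = 0.0814) or any senescent array of experiment 2 (adjusted p from 0.0729 to 0.179).

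For BAX, probe set 208478_s_at called the fall with senescence and 211833_s_at, at 8.74 and 8.62 in growing and 6.85 and 8.13 in senescent vector cells, did not (-1.19, adjusted p = 0.142; 23.2% of probe sets called). With shp107 211833_s_at was 8.71 and 7.78 in growing and 7.88 and 5.08 in senescent cells, a fall of 1.77 (adjusted p = 0.0189; 35.4% of probe sets called). It was lost without senescent shp107 replicate 2, where the change was -0.37 (adjusted p = 0.623), or growing shp107 replicate 1 (adjusted p = 0.180). MDM2 probe set 225160_x_at fell with senescence in shp130 cells, from 9.81 and 9.73 to 8.98 and 9.06 (0.75, adjusted p = 0.0139), a call lost without growing replicate 1 or either senescent array (adjusted p = 0.0865, 0.0767 and 0.0531). For MDM2 the dim probe set 238733_at gave calls that the others did not. It rose with senescence in experiment 2 from 4.54 and 4.39 to 5.24 and 5.37 (0.84 ± 0.19, adjusted p = 0.00661; 39.7% of probe sets called), a call lost without senescent vector replicate 2 (adjusted p = 0.0824), while the 3 others read 0.31 to 0.39 and were not called. It also rose at confluence, with shRB from 5.09 and 4.82 to 5.69 and 6.51 (1.14, adjusted p = 0.0407; 10.8% of probe sets called) and with shp107 from 5.11 and 4.38 to 6.37 and 6.37 (1.63, adjusted p = 0.00608; 9.28%). The first was lost without growing shRB replicate 1 or 2 or confluent shRB replicate 2 (adjusted p = 0.116, 0.202 and 0.312), and the other without growing shp107 replicate 2 (adjusted p = 0.159) or confluent shp107 replicate 1 (adjusted p = 0.0555). The shRB call of MDM2 in experiment 2 came from 229711_s_at (0.60), with 217542_at at 0.57 (adjusted p = 0.0647), 225160_x_at at 0.17 and 238733_at at -0.05.

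**Figure D5:**
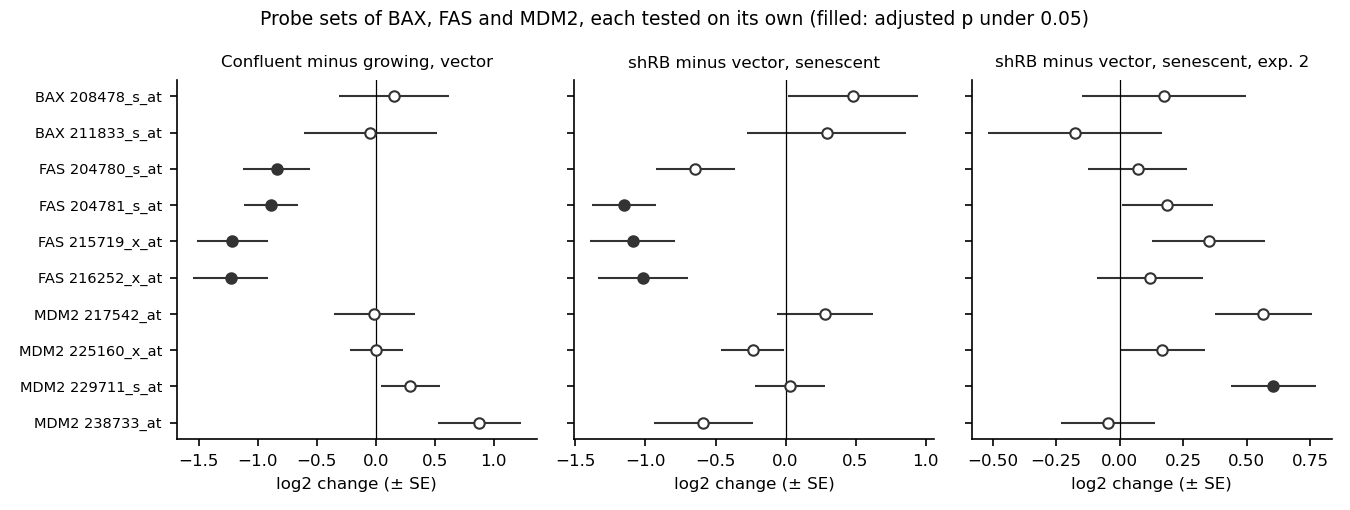
Log2 change ± SE (x axis, n = 2 arrays per group, scales differ) of each BAX, FAS and MDM2 probe set past the filter (rows), tested on its own, in 3 comparisons; filled points have an adjusted p under 0.05. All 4 FAS points are filled and below 0 at confluence, 3 FAS points are filled with shRB in senescence in experiment 1 and none in experiment 2, where 1 MDM2 point is filled.

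Of a list of 46 other p53 targets, CDKN1A among them, 40 were tested. In low serum 3 were called higher and 1 lower (13% of all genes called), at confluence 7 and 1 (25.1%), in senescence 12 and 2 (25.4%), and in senescence in experiment 2 17 and 0 (39.2%). The first 2 counts are below the share of all genes, the last is near it, and calls were mostly higher in all 4. The list medians were 0.19, 0.24, 0.41 and 0.44, beside all-gene medians of 0.03, -0.05, -0.10 and 0.01. In senescence the 4 with the largest changes were TNFRSF10D, a decoy receptor of the death ligand TRAIL, which rose by 1.81 ± 0.23, SERTAD1 (1.71), the kinase gene PLK3 (1.67) and the autophagy gene DRAM1, which fell by 1.70. In experiment 2 they were TNFRSF10D (2.20), the cytokine gene LIF (2.02), CDKN1A (1.92) and PLK3 (1.89), while DRAM1 differed by -0.37 (adjusted p = 0.160). At confluence PLK2 rose by 1.74, LIF by 1.52 and SUSD6 by 1.09, and TP53I3 fell by 1.34. In low serum TRIM22 (0.92), ANKRA2 (0.80) and PERP (0.67) rose and SFN, the gene of 14-3-3 sigma, fell by 1.10, to 3.71, near the array medians.

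With shRB in senescent cells 4 of the 40 were called higher and 2 lower (9.75% of all genes called), led by PIDD1, which takes part in p53-linked caspase activation (2.01 ± 0.29, adjusted p = 6.87e-05), and the DNA repair gene DDB2 (1.49, adjusted p = 0.000799). NINJ1 rose by 1.06 and TRIM32 fell by 1.26. In experiment 2 DDB2 rose by 0.67 (adjusted p = 0.0314), while PIDD1 was at 0.54 (adjusted p = 0.155), TRIM32 at -0.56 (adjusted p = 0.0749) and NINJ1 at -0.36 (adjusted p = 0.168), the opposite sign. There 5 were higher and 3 lower (20.1% of all genes called), led by PPM1D, the phosphatase that turns p53 signalling off (1.03, adjusted p = 0.00470), TNFRSF10D (-0.98), SPATA18 (0.94) and LIF (0.90). At confluence 2 were higher and 8 lower with shRB (17.5% of all genes called), and 1 higher and 7 lower with shp107 (13.5%). With senescence inside the hairpin lines, 17 rose and 1 fell with shRB (32.8% of all genes called), 16 and 3 with shp107 (38.2%), and 14 and 2 with shp130 (32.7%).

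Of a list of 16 genes of p53 regulation, 12 were tested, of which 1 was called in low serum, 4 at confluence, 2 in senescence and 4 in senescence in experiment 2, beside 13%, 25.1%, 25.4% and 39.2% of all genes. ATM, a kinase that activates p53 after DNA breaks, rose by 1.29 in low serum and 1.36 at confluence, and was 0.68 in senescence (adjusted p = 0.174). MDM4, the partner of MDM2, and EP300 rose at confluence (1.30 and 0.96). CDKN2A, which encodes p16 and the MDM2 inhibitor ARF, rose with senescence by 1.13 in experiment 1 and 1.19 in experiment 2. The checkpoint kinase gene CHEK1 fell by 1.50 at confluence, 1.32 in senescence and 1.43 in senescence in experiment 2, where MDM4 fell by 1.10.

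The ATF4 response, which raises amino acid synthesis genes under stress, was followed with a list of 21 genes. In low serum 8 of the 21 rose and 1 fell (median 0.85, 13% of all genes called). ATF4 itself rose by 0.82 and the asparagine synthetase gene ASNS by 2.86. In senescence 1 rose and 6 fell (median -0.15, 25.4% of all genes called), and in experiment 2 1 rose and 12 fell (median -0.60, 39.2%). At confluence 4 rose and 2 fell (median -0.20; 25.1%), near the share of all genes. Of 14 mitotic genes tested, 11 fell in low serum and all 14 at confluence, in senescence and in senescence in experiment 2 (medians -2.19, -2.80, -3.19 and -3.72), far above the shares of all genes. The part of either list in the changes of the p53 targets was not tested.

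Over the 16 group means of experiment 1, the genes most like GDF15 by Pearson correlation were IL1B (r = 0.977), SLC6A15 (0.977) and CXCL5 (0.975). For RRM2B they were CNOT8 (0.928), GCC2 (0.924) and CLN8 (0.924), for TP53INP1 PRNP (0.910), HIPK3 and GLRB, and for GADD45A SCN9A (0.960), CADM1 and MINDY2. For FAS they were SH3BP4 (0.924), PPIP5K2 and PLEKHF2, for SESN1 ZFP90 (0.907), PGAP1 and TCEA1, and for SESN2 NAPEPLD (0.877), ASS1 and SHMT2. MDM2 was most like CPQ (0.876), MED13L and ZNF830, and BAX most like PHB2 (0.839), U2AF1 and PPP1R35. Among the members the strongest correlations were those of GDF15 with RRM2B (0.78), FAS (-0.78) and GADD45A (-0.72), and of GADD45A with FAS (0.70) and TP53INP1 (0.67). For MDM2 the strongest were with SESN1 (0.52) and GDF15 (-0.50). The groups share arrays, states and hairpins, and these correlations are a description.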

How the data were processed

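Biotin-labelled cRNA from 1 µg of total RNA of IMR90 cells was hybridised to Affymetrix arrays. The authors deposited log2 values, 1 per probe set and array, which the submitters' processing notes credit to GCRMA, without saying whether all 38 arrays went through it at once. No further scaling was applied. Of 54613 probe sets, 41091 named 1 gene, 1801 several and 11721 none here. Each gene was represented by its brightest probe set over the 38 arrays, and genes above 5 on at least 2 arrays of experiment 1 were tested. Each experiment had its own limma fit (limma 3.58.1, R 4.3.3) of group means; differences between experiments came from 1 fit of all 38 arrays. Residual and prior degrees of freedom were 16 and 4.85, 3 and 5.35, and 19 and 5.00. P-values were adjusted by Benjamini-Hochberg within each contrast.

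All 10 p53 targets and CDKN1A were to be named, with up to 4 called genes of the list of other targets that changed most in each state and senescent shRB comparison, and the 3 genes most correlated with each member. Genes of the other lists were named after their values were seen. The members and lists were chosen with earlier results of these data known. The alternatives were quantile normalization, no filter, the mean of a gene's probe sets, an intensity trend with a robust prior, only the groups compared, both experiments in 1 fit, a replicate block, and leaving out each array.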

Additional observations from a re-analysis of the deposited data

Results flagged for a closer look

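The effect of shRB in senescent cells on the FAS probe set 204781_s_at differed between the experiments by 1.35 ± 0.31 (log2, adjusted p = 0.0296 in limma), falling by 1.16 in experiment 1 and standing at 0.19 in experiment 2. It was picked out because the test of the difference passed. The 3 other FAS probe sets differed the same way without passing (0.71, 1.44 and 1.14), and the call was lost when any of 6 of the 8 arrays was left out. The cause was not tested.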

How the results depend on the processing

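Of 38 called member changes, 13 kept their call under every alternative, namely GDF15 and RRM2B with senescence in vector cells, in the 3 hairpin lines and in experiment 2, GDF15 in senescent against low-serum vector cells, and GDF15 and RRM2B at confluence with shp130. Over the 38 changes 86 of 417 alternatives ended a call, and over the 331 changes that were not called 74 of 3979 alternatives gave one. No called change turned its sign. The GDF15 rise with senescence in vector cells was 1.35 with the mean of its probe sets, of which the 2 dimmer ones lay below the filter, against 3.67.

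With only the groups compared in the fit, the members called were 1 instead of 3 in low serum and 0 instead of 3 at confluence, and went from 3 to 0 for shRB against vector, from 1 to 0 for shp107 and from 1 to 0 for shRB against the other hairpins in senescence; such a fit has fewer residual degrees of freedom. With the mean of probe sets they went from 0 to 1 for shp130, from 1 to 2 for shRB against the other hairpins, from 1 to 0 for shRB in experiment 2 and from 0 to 1 between experiments. Differences of a state change between hairpin and vector had 1 call with an intensity trend and 1 with both experiments in 1 fit, where shRB in experiment 2 had 0. The cause was not tested.

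Leaving out each array in turn gave 1 to 2 calls in low serum, 2 to 3 at confluence, 2 to 3 in senescence, 3 to 8 for senescence against the other arrests, 12 to 18 within the hairpin lines, 2 to 5 for shRB, 1 to 3 for shp107, 0 for shp130, 0 to 2 for differences between hairpin and vector, 0 to 2 for shRB against the other hairpins, 2 to 3 in senescence in experiment 2, 0 to 1 for shRB there and 0 to 1 between experiments. Leaving out arrays for single probe sets was chosen after seeing the data. Quantile normalization moved the all-gene median by 0.12 for senescence in vector cells and the share of higher calls from 36.2% to 49.5% (39.0% to 51.8% for senescent against low serum); there BAX was -1.25 (adjusted p = 0.0523). Correlations of replicate differences between groups do not settle whether the replicate numbers pair the samples. Of 120 pairs of groups in experiment 1, 38 correlated above 0.1 and 17 below -0.1 (median 0.04, range -0.38 to 0.49). With the replicate block, shRB against vector had 2 calls in place of 3, senescence in experiment 2 had 3 in place of 2, and no other count changed.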
